A study of Mus musculus with 24 samples.

Results

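MK-8722 is a small molecule that activates AMP-activated protein kinase (AMPK) directly. The 8 libraries compared here came from wild-type (WT) mouse embryonic fibroblasts (MEFs), 4 given MK-8722 and 4 given its solvent DMSO, out of 24 libraries in the series. They were chosen by their labels for genotype and treatment alone, and every gene of the count table entered, of which 15828 of 55487 had enough counts to be tested. Each side held 1 library of each passage from 12 to 15, the passage being the number of times the culture had been split. The other libraries are WT MEFs given torin1, which inhibits MTOR, at the same passages, and AMPK knockout (KO) MEFs with DMSO, MK-8722 or torin1 at passages 16 to 19. All cells are labelled as MEFs with no further allele or agent, and the labels used here give neither the concentration and duration of treatment nor whether the libraries of a group came from separate cultures. P values therefore measure the spread between these libraries, which may be technical in part.

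AMPK is a trimer of a catalytic alpha, a scaffolding beta and a nucleotide-binding gamma subunit that is switched on when AMP and ADP rise relative to ATP. It phosphorylates enzymes of lipid and glucose metabolism, restrains MTOR complex 1 through TSC2 and RAPTOR, starts autophagy through ULK1, and reaches transcription through FNIP1 and the factors TFEB and TFE3, class IIa histone deacetylases, FOXO factors and the CRTC coactivators of CREB. MK-8722 binds at the interface of the alpha and beta subunits and acts on trimers of every composition.

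The 24 libraries held 26900240 to 34192685 estimated counts each, both extremes being WT libraries of this comparison. Depth was 29218337 to 34192685 counts with DMSO and 26900240 to 31851235 with MK-8722. The ranges overlapped only through the MK-8722 library of passage 14, the others with MK-8722 being shallower than every DMSO library. RNA integrity numbers of the 8 libraries were 9.7 to 10, and mitochondrially encoded transcripts took 1.14% to 1.34% of their counts. The DMSO and the MK-8722 library of passage 12 stood farthest from the others of their group. Of 12 fibroblast markers, 10 were expressed, and their summed level was 11393 to 16172 counts scaled to library size (CPM) with DMSO and 11289 to 15886 CPM with MK-8722, while Lum and Dcn had at most 3 counts in every library and Pdgfrb was called higher. Epithelial markers summed to 49.8 to 69.2 CPM with DMSO and 37.3 to 52.1 CPM with MK-8722, with Krt19 called lower, and neural markers to 10.8 to 20.98 CPM and 7.16 to 13.3 CPM, with Stmn2 called lower. Markers of leucocytes, muscle, fat and cartilage were near 0, with a summed level of at most 5.48 CPM in any of the 8 libraries.

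MK-8722 changed 2483 of the 15828 genes tested in WT MEFs, which is 15.7% of them. Throughout, a log2 fold change is MK-8722 minus DMSO and is followed by its standard error. Calls required an adjusted p under 0.05 in edgeR's quasi-likelihood test together with a fold change of 1.2 or more. Of these genes 1587 rose (10% of all tested) and 896 fell (5.66%), and most changes were small, with 228 rises and 89 falls of at least 2-fold and 36 and 17 of at least 4-fold. In 1324 of the genes that rose and 674 of those that fell the 4 libraries of each group did not overlap in CPM. In 1560 and 866 the change had the called direction at each of the 4 passages. Both traits were common over all genes tested, called or not. Of these 25.5% did not overlap in either direction and 49.3% kept the same sign at all 4 passages. Without both passage 12 libraries 2562 genes were called, among them 2183 of the same genes in the same direction (87.9%). In bulk RNA, fewer cells of a type and less RNA per cell cannot be told apart. Lysosomal, ATF4-regulated and sterol synthesis genes were set aside, and the rest of the response is described below by gene and by role.

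**Figure D1:**
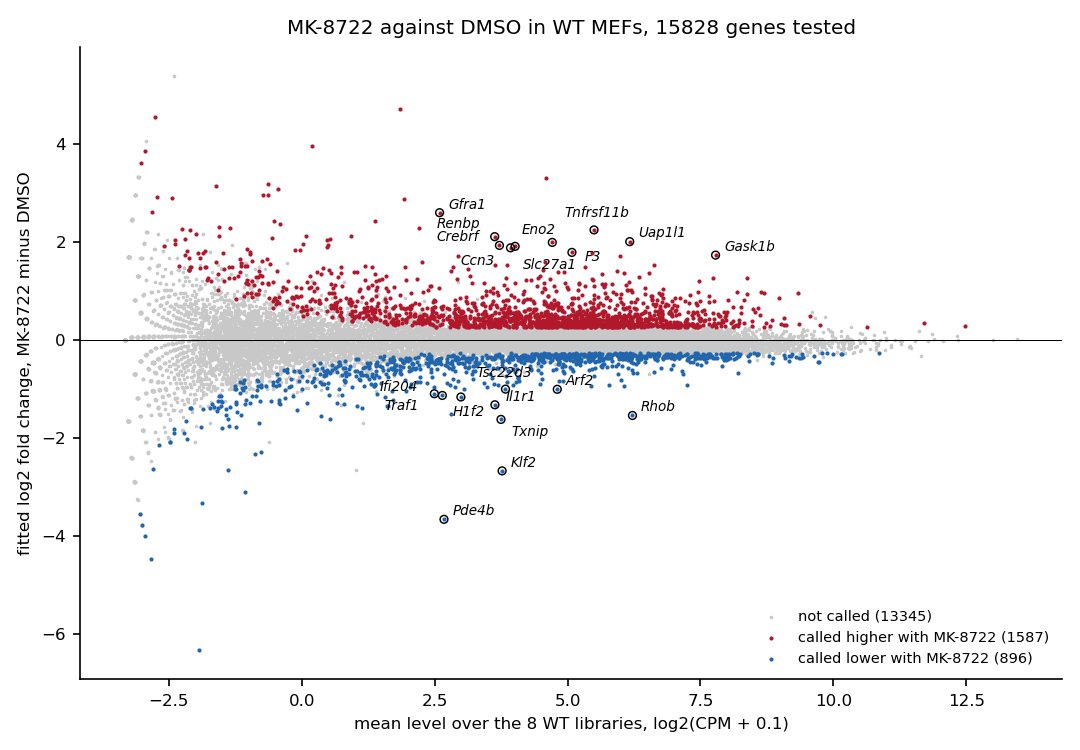
Fitted log2 fold change of MK-8722 against DMSO in WT MEFs (vertical axis) against the mean level of each gene over the 8 libraries in log2 CPM (horizontal axis), 1 point per gene tested. The 1587 genes called higher are red, the 896 called lower are blue, and circles mark the 10 largest rises and falls named in the text, from 2.61 for Gfra1 to -3.65 for Pde4b.

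The genes with the largest rises include receptors and secreted factors, enzymes of sugar and amino sugar metabolism and a fatty acid transporter. They are the 10 largest rises among genes with a mean of at least 5 CPM whose groups did not overlap, without unnamed gene models, the lists set aside and chromosome 18, which is not reported here. The rule thus fixed in advance that the groups of these genes do not overlap. Levels are given in CPM for passages 12, 13, 14 and 15 in that order, with the position of each gene in GRCm38. Gfra1 (chr19:58235604-58455909) encodes the receptor of glial cell line-derived neurotrophic factor and had 2.95, 1.24, 1.54 and 0.865 CPM with DMSO and 15.8, 8.53, 8.75 and 7.85 CPM with MK-8722 (log2 fold change 2.61 ± 0.34, adjusted p = 3.31e-06). Its passage 12 library was the highest in each group, and the lowest treated library exceeded the highest control. Tnfrsf11b (chr15:54250619-54278484) encodes osteoprotegerin, a secreted decoy receptor for RANKL, and had 10.3, 23.8, 15.5 and 13 CPM with DMSO and 41.3, 114, 77.8 and 64.6 CPM with MK-8722 (log2 fold change 2.25 ± 0.22, adjusted p = 5.81e-08). The groups did not overlap, and the level itself differed between passages in both groups, lowest at passage 12 and highest at passage 13.

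Of the enzymes, Uap1l1 (chr2:25359889-25365682), a relative of the enzyme that makes UDP-N-acetylglucosamine, had 29.6, 27.6, 28.9 and 28 CPM with DMSO and 113, 114, 119 and 114 CPM with MK-8722 (log2 fold change 2.02 ± 0.12, adjusted p = 1.26e-11). The libraries of a group were nearly equal for this gene. Renbp (chrX:73922121-73930850), which converts N-acetylmannosamine and N-acetylglucosamine into each other, had 4.33, 5.45, 4.25 and 4.39 CPM with DMSO and 20.8, 23.4, 18.8 and 16.8 CPM with MK-8722 (log2 fold change 2.12 ± 0.17, adjusted p = 2.13e-09). The glycolytic enzyme Eno2 (chr6:124760053-124769673), an enolase best known from neurons, had 6.34, 7.46, 6.99 and 6.09 CPM with DMSO and 21.3, 28.1, 25.9 and 26.3 CPM with MK-8722 (log2 fold change 1.92 ± 0.12, adjusted p = 6.04e-11). Slc27a1 (chr8:71568882-71587302), a transporter and acyl-CoA synthetase for long-chain fatty acids, had 10.02, 10.9, 11.3 and 9.62 CPM with DMSO and 41.6, 47.1, 40.5 and 38 CPM with MK-8722 (log2 fold change 2.0 ± 0.11, adjusted p = 7.57e-12). For these genes too every treated library lay above every control.

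Crebrf (chr17:26715650-26776635), a regulator of the CREB3 family of transcription factors, had 5.59, 4.97, 5.86 and 5.19 CPM with DMSO and 22.8, 20.6, 19.8 and 19.8 CPM with MK-8722 (log2 fold change 1.94 ± 0.14, adjusted p = 5.66e-10), with all 8 libraries close to their group mean. A pair of proteins of the matrix and of blood clotting rose as well. The matricellular factor Ccn3 (chr15:54745702-54754039) had 4.96, 8.05, 5.97 and 6.81 CPM with DMSO and 14.6, 30.9, 24.9 and 24.8 CPM with MK-8722 (log2 fold change 1.89 ± 0.20, adjusted p = 1.31e-07). F3 (chr3:121723537-121735048), the tissue factor that starts coagulation, had 15.3, 17.9, 13.8 and 13.4 CPM with DMSO and 40.1, 73.8, 50.3 and 45.7 CPM with MK-8722 (log2 fold change 1.8 ± 0.16, adjusted p = 1.58e-08). In both, the treated passage 12 library was the lowest of its group and the treated passage 13 library the highest. Gask1b (chr3:79884533-79946280), a Golgi-associated protein, had 95.7, 112, 100.1 and 98.8 CPM with DMSO and 306, 372, 337 and 341 CPM with MK-8722 (log2 fold change 1.74 ± 0.14, adjusted p = 1.39e-09), without overlap.

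The 10 largest falls were chosen in the same way, which again fixed that their groups do not overlap. Pde4b (chr4:102087543-102607259), a phosphodiesterase that degrades cyclic AMP, had 9.61, 10.5, 13.1 and 13.4 CPM with DMSO and 0.877, 0.973, 0.831 and 1.02 CPM with MK-8722 (log2 fold change -3.65 ± 0.15, adjusted p = 5.55e-14). The treated libraries were all near 1 CPM, and this was the largest change in either direction among these 20 genes. Klf2 (chr8:72319033-72321656), a Kruppel-like transcription factor induced by MEF2 and known for its anti-inflammatory role in endothelium, had 22, 26.8, 22.6 and 22 CPM with DMSO and 4.97, 3.46, 3.13 and 3.18 CPM with MK-8722 (log2 fold change -2.66 ± 0.20, adjusted p = 5.66e-10). Rhob (chr12:8497661-8500009), a small GTPase that sits on endosomes, had 101, 124, 112 and 107 CPM with DMSO and 37.5, 41.6, 36.3 and 37.7 CPM with MK-8722 (log2 fold change -1.53 ± 0.12, adjusted p = 1.14e-09). Both were lower in every treated library than in any control.

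Txnip (chr3:96557957-96561883) encodes an arrestin-like protein that takes glucose transporters off the cell surface and is itself a target of AMPK at the protein level. It had 30.1, 15.6, 15.6 and 19.1 CPM with DMSO and 14.3, 2.96, 4.62 and 4.4 CPM with MK-8722 (log2 fold change -1.61 ± 0.38, adjusted p = 0.0022). The treated library of passage 12 was far above the other treated libraries and just below the lowest control, and without it (WT MK-8722 replicate 2) the log2 fold change was -2.33. Arf2 (chr11:103966739-103985337), a small GTPase of the Golgi, had 33.7, 43.6, 34.9 and 36.6 CPM with DMSO and 17.1, 19, 19.4 and 18.8 CPM with MK-8722 (log2 fold change -1.0 ± 0.08, adjusted p = 3.8e-09). Tsc22d3 (chrX:140539528-140600659), the glucocorticoid-induced leucine zipper protein, had 21.5, 18.3, 17.4 and 18.2 CPM with DMSO and 12.9, 9.11, 7.55 and 8.25 CPM with MK-8722 (log2 fold change -1.0 ± 0.13, adjusted p = 3.51e-06). Neither gene overlapped between the groups.

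Il1r1 (chr1:40225080-40317257), the signalling receptor of interleukin 1, had 12.6, 22.1, 17.7 and 18 CPM with DMSO and 6.03, 8.68, 6.45 and 7.07 CPM with MK-8722 (log2 fold change -1.32 ± 0.15, adjusted p = 7.32e-07). Traf1 (chr2:34941750-34961772), an adaptor of tumour necrosis factor receptors induced by NF-kB, had 7.38, 6.73, 7.23 and 8.83 CPM with DMSO and 3.03, 3.35, 4.06 and 3.69 CPM with MK-8722 (log2 fold change -1.09 ± 0.12, adjusted p = 4.52e-07). In these signalling genes the highest treated library stayed below the lowest control. Ifi204 (chr1:173747293-173766943), an interferon-inducible sensor of DNA, had 9.67, 9.22, 7.13 and 7.75 CPM with DMSO and 4.97, 4.13, 3.26 and 3.14 CPM with MK-8722 (log2 fold change -1.12 ± 0.16, adjusted p = 7.58e-06), and since the family has close copies its share of the reads is uncertain. The linker histone H1f2 (chr13:23738808-23740367) had 8.73, 10.7, 13.3 and 10.7 CPM with DMSO and 4.9, 6.54, 4.29 and 3.77 CPM with MK-8722 (log2 fold change -1.16 ± 0.18, adjusted p = 4.02e-05). Histone transcripts of this kind mostly lack a poly(A) tail, so poly(A) libraries catch only part of them.

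**Figure D2:**
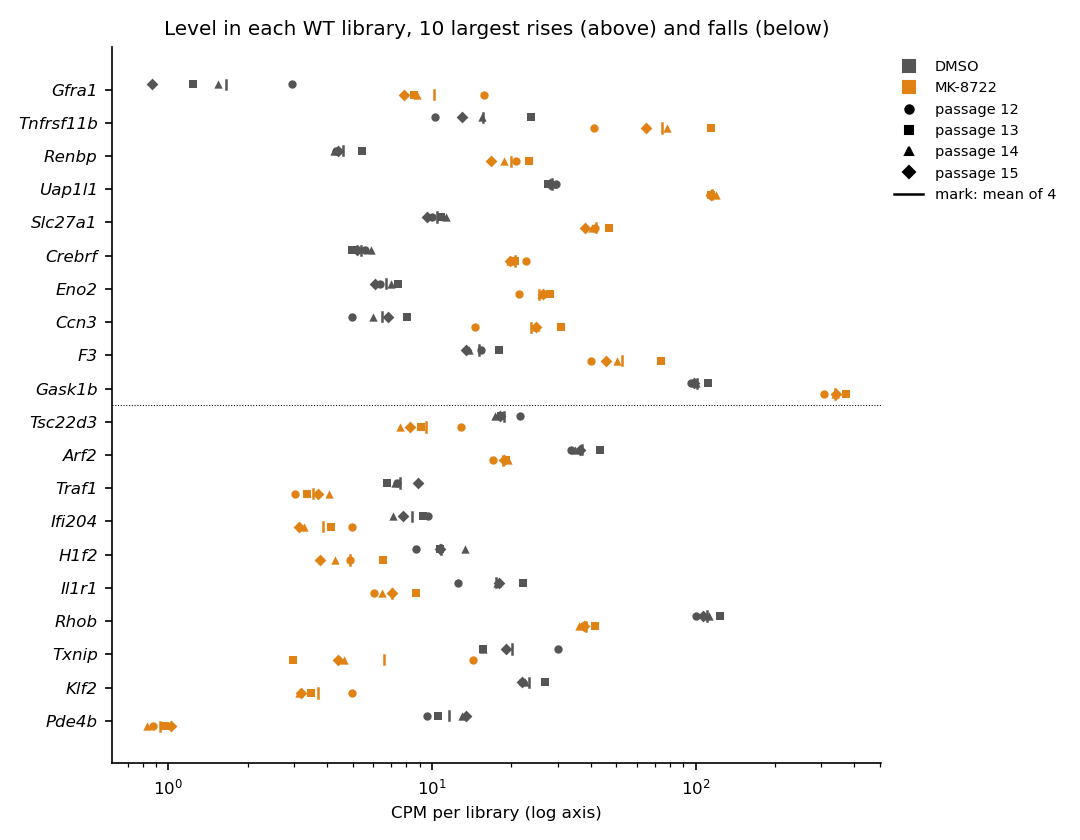
Level of the 20 genes with the largest changes in each WT library, in CPM on a log axis, with grey points for DMSO, orange points for MK-8722, a shape per passage and a vertical mark at each group mean. By the rule that named them, the groups do not overlap in any of the 20 genes. The treated passage 12 library of Txnip (14.3 CPM) sits away from the other 3.

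The same contrast in AMPK KO MEFs asks whether these changes need the kinase. Prkaa1 transcripts were still counted in KO (70.9 ± 2.95 CPM with DMSO, against 80.9 ± 2 CPM in WT, SD, n = 4), so the gene counts do not check the KO label. Of all genes tested, 1.56% were called in KO, which is 247 genes. This number fell to 121 without AMPK KO MK-8722 replicate 1, 147 without replicate 4 and 130 without AMPK KO DMSO replicate 1. It rose to 363 with DESeq2 and to 729 with passage as a block in the model. Of the 20 genes above, 1 was called there, Tsc22d3, which rose in KO (log2 fold change 0.54 ± 0.12, adjusted p = 0.0163) where it fell in WT. That call was lost on leaving out any 1 of 4 KO libraries (DMSO replicate 2 or 3, MK-8722 replicate 1 or 4), with adjusted p from 0.0562 to 0.0642. The other 19 were not called in KO by the main fit, with log2 fold changes from -1.25 to 0.28. Their KO calls were not examined under the other settings. The response itself differed between the genotypes, by the interaction term of the model, in 17 of the 20, against 12.8% of all genes. The response was lower in KO for the 9 rises among them and higher in KO for the 8 falls. The difference was 3.69 ± 0.18 (log2, KO response minus WT response, adjusted p = 3.04e-12) for Pde4b and -2.02 ± 0.16 (adjusted p = 2.01e-08) for Uap1l1. The genes were named for a large response in WT, which also enters this difference, and passage differs between the genotypes, so that passage and genotype cannot be told apart.

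Tnfrsf11b, Txnip and H1f2 were the genes without a difference called by edgeR. Txnip had a log2 fold change of -1.25 ± 0.35 in KO (adjusted p = 0.0576) and its interaction was 0.36 ± 0.52 (adjusted p = 0.712). Tnfrsf11b was at 0.194 ± 0.079 CPM (SD, n = 4) in KO cells with DMSO, against 15.7 ± 5.85 CPM in WT cells with DMSO, and its interaction was -2.33 ± 1.11 (adjusted p = 0.162). A response was not detectable at so low a level in KO by edgeR, while DESeq2 called the interaction (adjusted p = 0.00107). For H1f2 the interaction was 0.72 ± 0.27 (adjusted p = 0.0692), but it was called by DESeq2 (adjusted p = 0.0402), and by edgeR without AMPK KO DMSO replicate 1, AMPK KO MK-8722 replicate 3, WT DMSO replicate 4 or WT MK-8722 replicate 1, with adjusted p from 0.0221 to 0.0462. Gask1b was low in KO as well, at 1.82 ± 0.76 CPM with DMSO and 1.75 ± 0.71 CPM with MK-8722, against 101.6 ± 6.95 CPM in WT cells with DMSO.

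**Figure D3:**
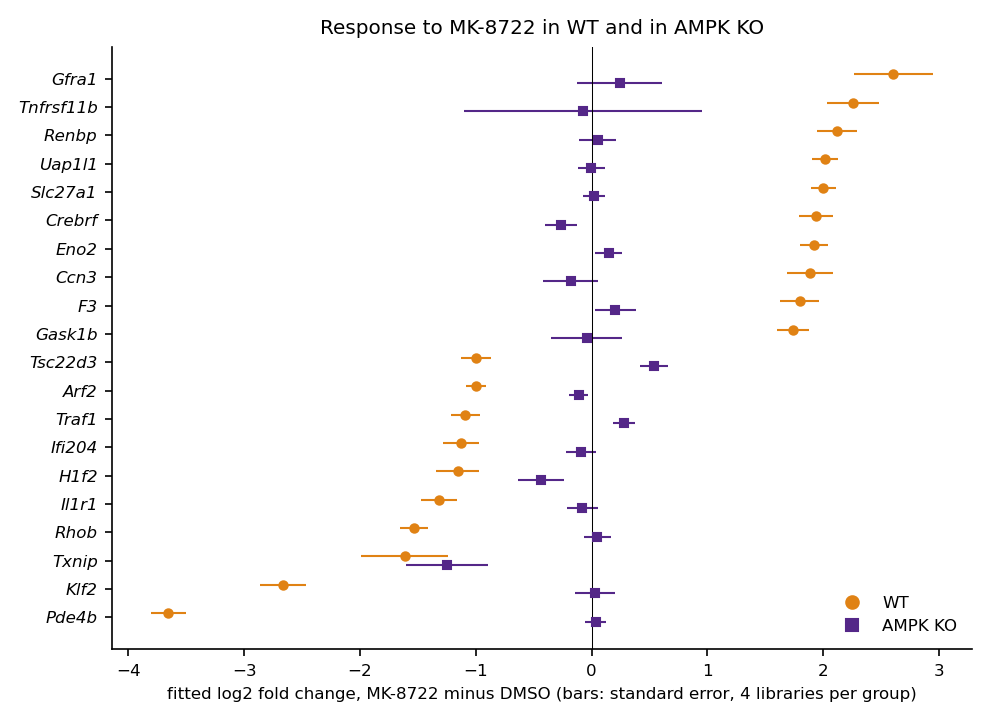
Fitted log2 fold change of MK-8722 against DMSO for the 20 genes in WT (orange circles) and in AMPK KO (purple squares), with bars of 1 standard error and 4 libraries per group. The KO values lie between -1.25 (Txnip) and 0.54 (Tsc22d3), and the bar of Tnfrsf11b in KO is the widest (1.03).

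Torin1 inhibits MTOR at its active site, and MTOR complex 1 is also restrained by AMPK, so the direct contrast of the drugs asks where their effects part. Between torin1 and MK-8722 45.7% of all genes tested were called, 24.5% higher and 21.2% lower with torin1. All 10 genes with the largest falls were called higher with torin1 than with MK-8722. The direction of torin1 against DMSO was not tested. Mean levels with torin1 were below those with DMSO for Tsc22d3 (11.9 against 18.8 CPM) and H1f2 (7.06 against 10.9 CPM). The same held for Ifi204 (6.45 against 8.44 CPM) and Arf2 (35.8 against 37.2 CPM), while the other falls lay above their DMSO mean. Pde4b was at 25.8 ± 2 CPM (SD, n = 4) with torin1, where the DMSO libraries had 11.7 ± 1.88 CPM, and differed from MK-8722 by 4.8 ± 0.14 on the log2 scale (adjusted p = 2.97e-17). Txnip was at 118 ± 14 CPM with torin1 against 6.57 ± 5.2 CPM with MK-8722 (log2 difference 4.16 ± 0.37, adjusted p = 1.24e-09). Of the 10 rises, 6 were lower with torin1 than with MK-8722, 2 were higher (Crebrf and Ccn3) and 2 were not called different (Gfra1 and Slc27a1). For the 6 lower ones the mean with torin1 still lay above that with DMSO, as in Uap1l1 (80.6 against 28.5 CPM) and Gask1b (135 against 101.6 CPM). Slc27a1 was at 35.7 ± 4.3 CPM with torin1 and 41.8 ± 3.86 CPM with MK-8722, a log2 difference of -0.23 ± 0.10 (adjusted p = 0.0486) that missed the fold threshold but passed it without WT torin1 replicate 4 (-0.29, adjusted p = 0.0152). Some of these calls rested on single libraries. Without WT MK-8722 replicate 1 Tnfrsf11b had -0.37 and was not called, nor was it without WT torin1 replicate 1 or by DESeq2 (adjusted p = 0.058). Ccn3 was not called without WT MK-8722 replicate 2 or WT torin1 replicate 1 or 3, H1f2 without WT MK-8722 replicate 3 or WT torin1 replicate 2, and Tsc22d3 without WT MK-8722 replicate 1, 3 or 4 or WT torin1 replicate 2 or 3. The contrast shares its MK-8722 libraries with the contrast by which the genes were named.

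The wider response was read from 45 lists of genes with a common role. In 29 of them a larger share of the tested members rose than the 10% of all genes, in 23 a larger share fell than the 5.66% of all genes, and 30 held calls in both directions. The counts of each list below are to be read against these shares of all genes. At an unadjusted p under 0.05, without a fold threshold, 5989 of all 15828 genes tested passed in either direction by edgeR. Counts at that p are to be read against this number. The median log2 fold change of a list ran from -0.55 to 0.31, against -0.0017 over all genes tested.

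**Figure D4:**
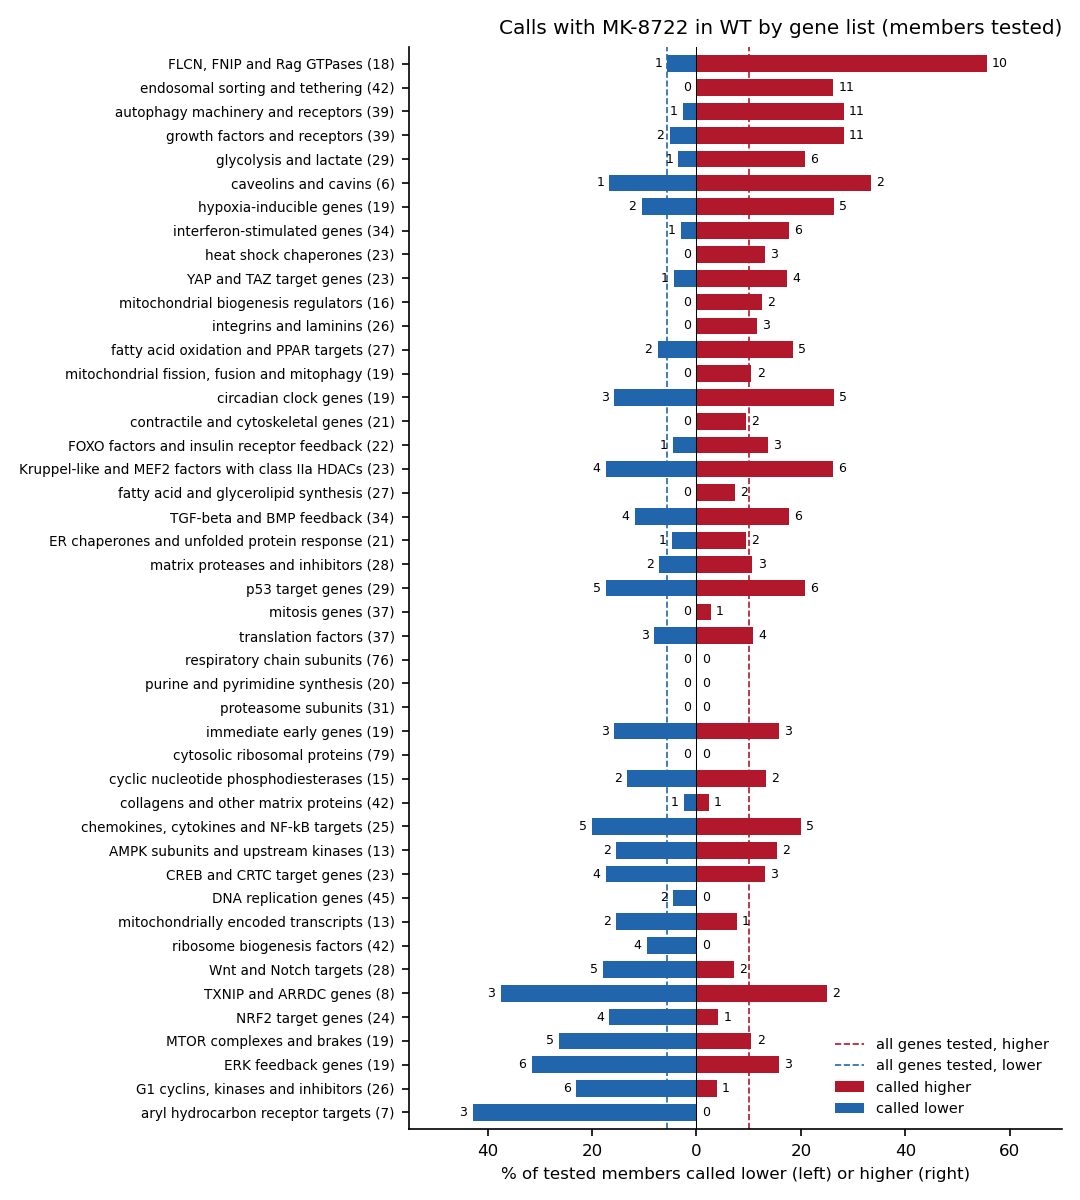
Share of the tested members of each of the 45 lists called lower (blue, to the left) or higher (red, to the right) with MK-8722 in WT, in percent, with the number of members called at the end of each bar and the number tested in brackets. Dashed lines mark the shares of all genes tested (10% higher, 5.66% lower), and the FLCN, FNIP and Rag list reaches farthest to the right with 10 of 18.

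The AMPK subunits were measured as a check on the target. Prkaa1, the alpha1 catalytic subunit that is targeted in the KO together with alpha2, had 81.5, 78, 82.6 and 81.6 CPM with DMSO and 80.6, 79.6, 84.5 and 80.2 CPM with MK-8722 (log2 fold change 0.01 ± 0.05, adjusted p = 0.957), and its groups overlapped. Prkaa2, the other catalytic subunit, rose from a low level, with 5.71, 3.22, 5.44 and 4.58 CPM with DMSO and 8.59, 6.19, 9.01 and 7.27 CPM with MK-8722 (log2 fold change 0.71 ± 0.19, adjusted p = 0.00623). The scaffolding subunits went opposite ways. Prkab2 had 13.8, 14.3, 12.5 and 11.2 CPM with DMSO and 15.2, 19.1, 17.6 and 17.5 CPM with MK-8722 (log2 fold change 0.42 ± 0.10, adjusted p = 0.00278). Prkab1 had 58.8, 55.2, 55.8 and 55 CPM with DMSO and 49.2, 41.9, 40.6 and 41.6 CPM with MK-8722 (log2 fold change -0.38 ± 0.05, adjusted p = 4.6e-06). The gamma subunit gene Prkag1 fell slightly (log2 fold change -0.29 ± 0.03, adjusted p = 1.87e-07). Of the 13 subunits and upstream kinases, 2 rose and 2 fell (15.4% each way, against 10% and 5.66% of all genes).

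Most genes of the machinery that reads amino acids at the lysosome rose. FLCN and its partners FNIP1 and FNIP2 act on the Rag GTPases, which recruit MTOR complex 1 and the transcription factor TFEB to the lysosome, and FNIP1 is phosphorylated by AMPK. Of 18 such genes 10 rose and 1 fell (55.6% and 5.56%), with a list median of 0.31. Fnip1 had 28.6, 27.2, 27.5 and 28.7 CPM with DMSO and 71.6, 70.8, 76.7 and 67.2 CPM with MK-8722 (log2 fold change 1.35 ± 0.11, adjusted p = 2.05e-09). Flcn had 32.1, 34.1, 33.6 and 28.8 CPM with DMSO and 70.5, 74.7, 69.5 and 72.3 CPM with MK-8722 (log2 fold change 1.16 ± 0.08, adjusted p = 9.95e-11). In neither did the groups overlap, and each rose at all 4 passages. By the interaction term the response of 10 of the 18 was lower in AMPK KO than in WT, against 1212 of all 15828 genes tested.

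TFEB and TFE3 bind E-boxes of the letters CACGTG, with a preference for the longer TCACGTGA. The windows of 250 bases before to 50 bases after the gene starts of RefSeq were searched on both strands for these letters, the shorter lying within the longer. Of all 32817 windows 7.15% held CACGTG and 0.975% held TCACGTGA. Of 143 genes named by rule 88 had a window at the start of their most abundant transcript (61.5%), too few to compare shares between sets of genes, and 4 of the 88 held the longer motif before the start. The shorter motif lay before the start in 7 of the named genes called higher and in 5 called lower, Arrdc4, Atg5, Klf4, Per1 and Tyms. Shown are the sites of the longer motif, all in genes that rose, and that of Fnip1, a partner of FLCN described above. They are 30 bases each of GRCm38.p6 in the direction of the gene, with the motif in capitals.
Crebrf, chr17:26715513-26715542, + strand: cccctctggtgTCACGTGAcgggcgctagc
Vps26a, chr10:62486970-62486999, - strand: cgcacggctcgTCACGTGAcaactagctct
Mlx, chr11:101087238-101087267, + strand: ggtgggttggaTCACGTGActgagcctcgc
Maff, chr15:79347317-79347346, + strand: ctccagaggtgTCACGTGAatgcatccaga
Fnip1, chr11:54438092-54438121, + strand: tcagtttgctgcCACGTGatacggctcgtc
The motif began 126 bases before the start of the most abundant transcript in Crebrf, 183 in Vps26a, 41 in Mlx, 192 in Maff and 75 in Fnip1. A match of letters is a description of the sequence, and binding was not measured.

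Endosomal sorting genes rose without exception among those called. Of 42 genes of the retromer, the HOPS and CORVET tethers and the ESCRT complexes 11 rose and 0 fell by edgeR (26.2% higher). DESeq2 also called 11 higher and 0 lower, with 25 higher and 4 lower at an unadjusted p under 0.05. Vps26a, a retromer subunit that returns receptors from endosomes, had 119, 108, 116 and 118 CPM with DMSO and 193, 194, 203 and 195 CPM with MK-8722 (log2 fold change 0.77 ± 0.08, adjusted p = 1.53e-07), the treated libraries all lying above the controls. Among autophagy genes 11 of 39 rose and 1 fell (28.2% and 2.56%). Sqstm1, the cargo receptor p62, had 329, 259.8, 240.1 and 240.1 CPM with DMSO and 688, 511, 459 and 461 CPM with MK-8722 (log2 fold change 0.99 ± 0.13, adjusted p = 4.5e-06). Optn, a receptor in the autophagy of mitochondria, had 7.66, 8.56, 7.69 and 7.21 CPM with DMSO and 11.4, 14.3, 12.7 and 13.8 CPM with MK-8722 (log2 fold change 0.74 ± 0.09, adjusted p = 6.04e-07). Both were without overlap, and in the passage 12 libraries Sqstm1 was highest in each group. In KO 1 of the 39 was called, lower, and the response of 14 was lower and of 2 higher than in WT. Of all 15828 genes tested the response was lower in 1212 and higher in 811.

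Brakes of MTOR went both ways. Of 19 genes of the MTOR complexes and their inhibitors 2 rose and 5 fell (10.5% and 26.3%, against 10% and 5.66% of all genes). Tsc1, part of the complex that turns off the activator RHEB, had 44.7, 46.8, 49.4 and 44.5 CPM with DMSO and 67.9, 73.5, 74.1 and 73.3 CPM with MK-8722 (log2 fold change 0.64 ± 0.06, adjusted p = 1.99e-08). Deptor, an inhibitor within the complexes, rose less and with overlap (log2 fold change 0.42 ± 0.09, adjusted p = 0.00139). Ddit4, a stress-induced inhibitor of MTOR complex 1, had 65.5, 48.2, 53.1 and 61.3 CPM with DMSO and 33.2, 27.2, 27.8 and 30.8 CPM with MK-8722 (log2 fold change -0.94 ± 0.12, adjusted p = 1.42e-06). Sesn2, the leucine sensor, fell with overlap (log2 fold change -0.60 ± 0.12, adjusted p = 0.0007), and its passage 12 library was the highest in each group. Ddit4 and Sesn2 also belong to the ATF4-regulated genes set aside.

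Cyclic AMP signalling and the factors and histone deacetylases tied to MEF2 held calls in both directions. Among 15 phosphodiesterases tested 2 rose and 2 fell (13.3% each way, against 10% and 5.66% of all genes), Pde4b by far the most. Pde8a, another phosphodiesterase of cyclic AMP, had 16.5, 18.8, 14.9 and 13.9 CPM with DMSO and 20.4, 33.4, 24.4 and 21.7 CPM with MK-8722 (log2 fold change 0.64 ± 0.12, adjusted p = 0.00037), without overlap. Of 23 targets of CREB and its CRTC coactivators 3 rose and 4 fell (13% and 17.4%). Gem, a small GTPase of the RGK family, had 1.85, 1.32, 1.65 and 1.41 CPM with DMSO and 3.33, 4.36, 3.63 and 3.46 CPM with MK-8722 (log2 fold change 1.24 ± 0.13, adjusted p = 2.21e-07). Fosb, an AP-1 subunit, rose from about 2 CPM (log2 fold change 0.68 ± 0.16, adjusted p = 0.00221). Of 23 Kruppel-like factors, MEF2 factors and class IIa histone deacetylases 6 rose and 4 fell (26.1% and 17.4%). Hdac5, a deacetylase that AMPK phosphorylates and that represses MEF2, had 95.5, 108, 109 and 99.3 CPM with DMSO and 154, 154, 158 and 161 CPM with MK-8722 (log2 fold change 0.60 ± 0.06, adjusted p = 6.33e-08), each treated library above each control.

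Among 22 FOXO factors, their targets and feedback genes of the insulin receptor 3 rose and 1 fell. The shares were 13.6% and 4.55%, against 10% and 5.66% of all genes. Irs2, an adaptor of the insulin receptor, had 70.2, 82.1, 81.9 and 68.7 CPM with DMSO and 93.8, 108, 105 and 101 CPM with MK-8722 (log2 fold change 0.43 ± 0.07, adjusted p = 5.34e-05). Bcl2l11, the pro-apoptotic FOXO target BIM, had 18.7, 19.8, 19.6 and 20.6 CPM with DMSO and 14.1, 12.9, 11.9 and 13.3 CPM with MK-8722 (log2 fold change -0.59 ± 0.06, adjusted p = 1.71e-07). Both separated the groups, in opposite directions. Fbxo32, the ubiquitin ligase atrogin-1, rose by 0.36 ± 0.10 on the log2 scale (adjusted p = 0.00787). In KO 2 genes of this list were called, both lower, and Bcl2l11 was 1 of them. Of all 15828 genes tested 110 were called lower in KO.

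Immediate early genes, which respond to growth factors within minutes, rose and fell in equal number. Of 19 tested 3 rose and 3 fell (15.8% each way, against 10% and 5.66% of all genes). Maff, a small Maf factor, had 17.9, 22.1, 21.7 and 19.3 CPM with DMSO and 31.3, 35.3, 32.6 and 33 CPM with MK-8722 (log2 fold change 0.71 ± 0.09, adjusted p = 2.18e-06). Zfp36, which destabilises inflammatory mRNAs, had 10.9, 11.8, 11.8 and 11.1 CPM with DMSO and 15.9, 19.97, 18.5 and 19.2 CPM with MK-8722 (log2 fold change 0.69 ± 0.07, adjusted p = 2.01e-07). Egr3, a zinc finger factor, had 5.56, 5.74, 4.7 and 4.25 CPM with DMSO and 2.3, 2.65, 2.56 and 2.44 CPM with MK-8722 (log2 fold change -1.03 ± 0.17, adjusted p = 5.49e-05). No overlap was seen in any of the 3. Of 19 genes that feed back on ERK signalling 3 rose and 6 fell (15.8% and 31.6%). Dusp4, a phosphatase of nuclear ERK, had 0.785, 0.805, 0.807 and 0.865 CPM with DMSO and 2.78, 2.02, 2.19 and 2.28 CPM with MK-8722 (log2 fold change 1.51 ± 0.23, adjusted p = 2.77e-05). Etv1, a transcription factor induced by ERK, had 3.05, 3.99, 2.98 and 2.92 CPM with DMSO and 1.68, 2.02, 1.46 and 1.57 CPM with MK-8722 (log2 fold change -0.94 ± 0.19, adjusted p = 0.000595), the treated libraries all below the controls.

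Among genes of cell adhesion and the matrix, 4 of 23 targets of YAP and TAZ, the factors of the Hippo pathway, rose and 1 fell (17.4% and 4.35%), with F3 in front. Ccn2, the connective tissue growth factor, had 455, 578, 384 and 334 CPM with DMSO and 763, 1089.6, 812 and 737 CPM with MK-8722 (log2 fold change 0.96 ± 0.18, adjusted p = 0.000317). It was highest at passage 13 in both groups, with no overlap. Of 42 collagens and other matrix proteins 1 rose and 1 fell (2.38% each way), the rise being Col8a1, a short-chain collagen, with 186, 195, 198 and 199.5 CPM with DMSO and 357, 407, 396 and 393 CPM with MK-8722 (log2 fold change 1.0 ± 0.09, adjusted p = 2.53e-08). Of 21 contractile and cytoskeletal genes 2 rose (9.52%, against 10% of all genes) and 0 fell by edgeR. By DESeq2 it was again 2 and 0, with 4 higher and 1 lower at an unadjusted p under 0.05. Lmod1, a leiomodin that nucleates actin filaments in smooth muscle, rose to at most 7.94 CPM (log2 fold change 1.24 ± 0.22, adjusted p = 0.00015).

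Of 28 matrix proteases and their inhibitors 3 rose and 2 fell (10.7% and 7.14%, against 10% and 5.66% of all genes). Plat, the tissue plasminogen activator, had 24.5, 40.4, 40.6 and 41.7 CPM with DMSO and 15.1, 23.4, 22 and 21.7 CPM with MK-8722 (log2 fold change -0.84 ± 0.19, adjusted p = 0.00154). Its groups stayed apart, and the passage 12 control was well below the other controls. The metalloprotease inhibitors differed in direction. Timp3 rose with overlap, the treated passage 12 library falling among the controls (log2 fold change 0.95 ± 0.19, adjusted p = 0.000482). Timp1 fell slightly, also with overlap (log2 fold change -0.35 ± 0.09, adjusted p = 0.00648). Of 26 integrins and laminins 3 rose (11.5%, against 10% of all genes) and 0 fell by edgeR. There were 4 and 0 by DESeq2, and 9 and 2 at an unadjusted p under 0.05. Itga5, the fibronectin receptor subunit, had 179, 203, 185 and 172 CPM with DMSO and 217, 303, 244 and 233 CPM with MK-8722 (log2 fold change 0.43 ± 0.11, adjusted p = 0.00575).

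Inflammatory genes rose and fell in equal number. Of 25 chemokines, cytokines and NF-kB targets tested 5 rose and 5 fell (20% each way), and without both passage 12 libraries 3 rose and 5 fell. Ptgs2, the inducible cyclooxygenase COX-2, had 38.9, 31, 30.05 and 24.7 CPM with DMSO and 60.6, 83.6, 68.7 and 63 CPM with MK-8722 (log2 fold change 1.14 ± 0.17, adjusted p = 1.73e-05). Cx3cl1, the chemokine fractalkine, had 19.1, 25.6, 20.9 and 18.3 CPM with DMSO and 12.1, 16.2, 11 and 10.8 CPM with MK-8722 (log2 fold change -0.74 ± 0.13, adjusted p = 0.000117). Neither overlapped, and the change of Ptgs2 was smallest at passage 12. Nfkbie, an inhibitor that NF-kB induces, fell as well (log2 fold change -0.74 ± 0.15, adjusted p = 0.000496).

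Of 34 interferon-stimulated genes 6 rose and 1 fell (17.6% and 2.94%). Ifit1, which binds viral RNA caps, had 4.74, 4.06, 4.04 and 2.27 CPM with DMSO and 12.7, 10.1, 9.18 and 8.44 CPM with MK-8722 (log2 fold change 1.42 ± 0.30, adjusted p = 0.000885). Ifit3, of the same family, had 1.57, 1.35, 1.3 and 1.37 CPM with DMSO and 3.51, 3.35, 3.79 and 3.73 CPM with MK-8722 (log2 fold change 1.36 ± 0.25, adjusted p = 0.000173). They were low in all libraries yet separate between the groups, and close copies in the mouse genome make the split of reads within the family uncertain. Irf1, an interferon-induced transcription factor, had 30.8, 34.9, 33.6 and 37.7 CPM with DMSO and 23.6, 26.9, 26.5 and 28.4 CPM with MK-8722 (log2 fold change -0.38 ± 0.08, adjusted p = 0.00064). In KO 2 members of the list were called, both lower, and Irf1 was 1 of them. The response of 6 was lower than in WT, against 1212 of all 15828 genes tested.

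Most calls among growth factors and their receptors were rises. Of 39 tested 11 rose and 2 fell (28.2% and 5.13%). Gfra1 led them, and Fgfr2, a fibroblast growth factor receptor, had 32.8, 38, 44.4 and 39.3 CPM with DMSO and 62.9, 88.6, 79.98 and 74.3 CPM with MK-8722 (log2 fold change 0.99 ± 0.09, adjusted p = 2.84e-08). Igfbp6, which binds insulin-like growth factor 2, was near 1 CPM and fell (log2 fold change -0.84 ± 0.22, adjusted p = 0.00524). The endothelial markers moved alongside, with a summed level of 0.877 to 1.39 CPM with DMSO and 4.48 to 8.72 CPM with MK-8722. Of the 6 markers Cdh5, Tie1 and Emcn had at most 3 counts in every library, and the receptor Kdr was the only marker called.

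Of 34 genes of TGF-beta and BMP signalling 6 rose and 4 fell (17.6% and 11.8%). Grem1, a secreted antagonist of BMPs, had 44.6, 35.4, 28.5 and 23.8 CPM with DMSO and 94.6, 113, 84.2 and 61.7 CPM with MK-8722 (log2 fold change 1.41 ± 0.20, adjusted p = 7.97e-06). Tgfbr3, the coreceptor betaglycan, had 10.1, 9.91, 11.1 and 10.8 CPM with DMSO and 21.2, 20.01, 20.3 and 17.6 CPM with MK-8722 (log2 fold change 0.92 ± 0.13, adjusted p = 7.97e-06). Smad3, a transducer of TGF-beta, had 87.1, 82.1, 83.4 and 83.8 CPM with DMSO and 62.2, 57.2, 53 and 56.3 CPM with MK-8722 (log2 fold change -0.56 ± 0.10, adjusted p = 0.000114). Each of these kept its groups apart, although Grem1 declined from passage 12 to passage 15 in the controls. Of 28 Wnt and Notch targets 2 rose and 5 fell (7.14% and 17.9%, against 10% and 5.66% of all genes). The Wnt receptors Fzd1 and Fzd7 rose by 0.38 and 0.36 on the log2 scale, and Hey1, a Notch target, had 4.9, 6.91, 5.02 and 4.39 CPM with DMSO and 3.55, 3.5, 2.23 and 2.12 CPM with MK-8722 (log2 fold change -0.90 ± 0.18, adjusted p = 0.000469).

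In glucose metabolism 6 of 29 genes of glycolysis and lactate transport rose and 1 fell (20.7% and 3.45%), but the list median was -0.01, and Eno2 stood far ahead of the rest. Txnip and its arrestin-like relative Arrdc4 are induced by glucose through the factors MLX and MondoA. Of 8 arrestin-like genes and MLX factors tested 2 rose, Arrdc2 and Mlx, and 3 fell (25% and 37.5%), and without both passage 12 libraries 1 rose and 3 fell. Arrdc2 rose slightly (log2 fold change 0.31 ± 0.11, adjusted p = 0.0315), a call lost without WT DMSO replicate 2, 3 or 4 or WT MK-8722 replicate 1, 2 or 3. Arrdc4 had 6.18, 3.04, 2.74 and 3.75 CPM with DMSO and 2.38, 1.21, 1.5 and 1.96 CPM with MK-8722 (log2 fold change -1.16 ± 0.26, adjusted p = 0.00137), the passage 12 library being the highest in each group as it was for Txnip. Mlx itself rose slightly, with 27, 28, 29.3 and 29.4 CPM with DMSO and 33.6, 34.1, 35.7 and 38.6 CPM with MK-8722 (log2 fold change 0.32 ± 0.05, adjusted p = 8.19e-05). In KO 1 gene of this list was called, Arrdc4, which was lower there too, against 110 of all 15828 genes tested called lower. Of 19 hypoxia-inducible genes 5 rose and 2 fell in WT (26.3% and 10.5%). Ndrg1, a stress-responsive cytoplasmic protein, had 33.2, 28.3, 22.9 and 21.5 CPM with DMSO and 81.3, 69.9, 49.1 and 50.5 CPM with MK-8722 (log2 fold change 1.24 ± 0.15, adjusted p = 1.35e-06). Ero1l, an oxidase of the endoplasmic reticulum, rose with overlap (log2 fold change 0.47 ± 0.11, adjusted p = 0.00294).

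Few mitochondrial genes were called. None of 76 nuclear subunits of the respiratory chain was called by edgeR or by DESeq2, and 2 were higher and 19 lower at an unadjusted p under 0.05. Of all 15828 genes tested 5989 passed that p in either direction. The member with the highest CPM, the ATP synthase subunit Atp5b, had 1739, 1681, 1722 and 1762 CPM with DMSO and 1714, 1704, 1708 and 1763 CPM with MK-8722 (log2 fold change -0.00 ± 0.04, adjusted p = 0.971). Of 13 mitochondrially encoded transcripts 1 rose and 2 fell (7.69% and 15.4%). The rise was mt-Co1, a cytochrome oxidase subunit, with 2979.7, 3148, 2819 and 2769 CPM with DMSO and 3397, 4289.6, 3861 and 3475 CPM with MK-8722 (log2 fold change 0.36 ± 0.08, adjusted p = 0.00209). Among 16 regulators of mitochondrial biogenesis, a process AMPK is known to promote through PGC-1alpha, 2 rose and 0 fell by edgeR. That is 12.5% higher, against 10% of all genes. DESeq2 likewise gave 2 and 0, with 2 and 2 at an unadjusted p under 0.05. The rise that held under every setting tried was Ppargc1b, the coactivator PGC-1beta, which stayed under 4 CPM in all libraries (log2 fold change 1.3 ± 0.23, adjusted p = 0.000126).

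Of 27 genes of fatty acid oxidation and PPAR targets 5 rose and 2 fell (18.5% and 7.41%). Fabp3, a cytosolic fatty acid carrier, had 1.51, 2.85, 1.86 and 1.59 CPM with DMSO and 4.06, 8.68, 5.02 and 4.28 CPM with MK-8722 (log2 fold change 1.5 ± 0.23, adjusted p = 2.23e-05). Its groups were separate, and the passage 13 library was the highest in each group. Of 27 genes of fatty acid and glycerolipid synthesis 2 rose (7.41%, against 10% of all genes) and 0 fell by edgeR. There were 3 and 0 by DESeq2, and 5 and 1 at an unadjusted p under 0.05.

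Stress pathways differed from each other. Of 24 NRF2 targets 1 rose and 4 fell (4.17% and 16.7%). The rise was Hmox1, a heme oxygenase, with 38.6, 45.6, 38.7 and 37.6 CPM with DMSO and 67.6, 75.4, 50.5 and 49.7 CPM with MK-8722 (log2 fold change 0.60 ± 0.11, adjusted p = 0.000136), larger at passages 12 and 13 than at 14 and 15. Osgin1, an oxidative stress-induced growth inhibitor, fell by 0.43 on the log2 scale. Of 7 aryl hydrocarbon receptor genes tested 0 rose and 3 fell by edgeR, 0 and 2 by DESeq2, and 2 and 3 at an unadjusted p under 0.05. Cyp1b1, a cytochrome P450 that the receptor induces, had 4.65, 15.2, 11.3 and 9.55 CPM with DMSO and 1.72, 6.62, 3.16 and 2.98 CPM with MK-8722 (log2 fold change -1.49 ± 0.35, adjusted p = 0.00204). The groups overlapped through passage 12, where both libraries were lowest. In KO 3 genes of this list were called lower too.

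Of 23 heat shock chaperones 3 rose and 0 fell by edgeR and by DESeq2, with 3 and 4 at an unadjusted p under 0.05. Dnajb4, a cochaperone, rose with overlap at passage 12 (log2 fold change 0.56 ± 0.10, adjusted p = 0.000281). Of 21 chaperones and folding genes of the endoplasmic reticulum 2 rose and 1 fell (9.52% and 4.76%, against 10% and 5.66% of all genes). Atf6, a sensor of unfolded proteins in the endoplasmic reticulum, had 101.5, 81.5, 79.4 and 80.7 CPM with DMSO and 156, 148, 142 and 129 CPM with MK-8722 (log2 fold change 0.75 ± 0.07, adjusted p = 2.65e-08), without overlap. Of 29 p53 targets 6 rose and 5 fell (20.7% and 17.2%, against 10% and 5.66% of all genes). Perp, a membrane protein of desmosomes and apoptosis, had 15.4, 14.2, 15.1 and 13.2 CPM with DMSO and 27.9, 38.9, 33.1 and 30.8 CPM with MK-8722 (log2 fold change 1.17 ± 0.10, adjusted p = 5.73e-09). Plk2, a stress-induced polo-like kinase, had 202, 178, 188 and 186 CPM with DMSO and 145, 123, 145 and 145 CPM with MK-8722 (log2 fold change -0.44 ± 0.08, adjusted p = 0.000111). Their groups were apart in opposite directions.

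In the cell cycle, most calls in G1 genes were falls. Of 26 G1 cyclins, kinases and inhibitors 1 rose and 6 fell (3.85% and 23.1%). Ccnd1, the cyclin D1 that growth factors induce, had 413, 319, 346 and 379 CPM with DMSO and 275, 195, 216 and 233 CPM with MK-8722 (log2 fold change -0.66 ± 0.13, adjusted p = 0.000563). Ccne1, the cyclin E1 of S phase entry, had 17.6, 18.4, 18.8 and 17.1 CPM with DMSO and 13.7, 10.7, 11.1 and 11 CPM with MK-8722 (log2 fold change -0.63 ± 0.09, adjusted p = 9.4e-06). Every treated library was below every control in both. Of 45 DNA replication genes 0 rose and 2 fell by edgeR, 0 and 3 by DESeq2, and 5 and 21 at an unadjusted p under 0.05. Tyms, the thymidylate synthase, had 83.8, 78.9, 77.2 and 81.9 CPM with DMSO and 67.8, 65.5, 59.5 and 61.4 CPM with MK-8722 (log2 fold change -0.34 ± 0.04, adjusted p = 5.58e-07), and Cdc6, which loads the replicative helicase, fell by 0.34 as well. Of 37 mitosis genes 1 rose and 0 fell by edgeR and by DESeq2, with 11 and 4 at an unadjusted p under 0.05. The response of 12 of these 37 was lower in KO than in WT, against 1212 of all 15828 genes tested. Their median log2 fold change was 0.08 in WT and -0.15 in KO, whose libraries are of other passages.

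Few genes of protein synthesis were called. None of 79 cytosolic ribosomal proteins was called by edgeR or DESeq2, with 2 higher and 7 lower at an unadjusted p under 0.05, and the member with the highest CPM, Rps2, had 4199, 4374, 4300.1 and 4344 CPM with DMSO and 4328, 4434, 4065 and 4322 CPM with MK-8722, with overlapping groups. Of 42 ribosome biogenesis factors 0 rose and 4 fell by edgeR, 0 and 5 by DESeq2, and 1 and 17 at an unadjusted p under 0.05. Bop1, a factor for the large subunit, had 194, 180.0, 183 and 176 CPM with DMSO and 149, 134, 126 and 129 CPM with MK-8722 (log2 fold change -0.45 ± 0.06, adjusted p = 1.87e-06). Tsr1, a factor for the small subunit, had 185, 168, 163 and 177 CPM with DMSO and 148, 131, 129 and 126 CPM with MK-8722 (log2 fold change -0.38 ± 0.07, adjusted p = 0.000478). Both fell at all 4 passages. In KO 3 genes of the list rose, and the response of 16 of the 42 was higher than in WT, against 811 of all 15828 genes tested. The list median was -0.13 in WT and 0.12 in KO, whose libraries are of other passages.

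Of 37 translation factors 4 rose and 3 fell (10.8% and 8.11%, against 10% and 5.66% of all genes). Among them were Eif4b, a helicase cofactor (log2 fold change 0.31), and Eif6, which keeps ribosomal subunits apart (-0.33). Eef2k, the kinase that slows elongation and is a known target of AMPK signalling, rose by 0.38. None of 20 genes of purine and pyrimidine synthesis was called by edgeR, 1 was lower by DESeq2, and 2 were higher and 7 lower at an unadjusted p under 0.05. None of 31 proteasome subunits was called by either tool, although 17 were lower and 0 higher at an unadjusted p under 0.05, with a list median of -0.11. That p was passed by 5989 of all 15828 genes tested in either direction.

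Of 19 circadian genes 5 rose and 3 fell (26.3% and 15.8%). Rora, a nuclear receptor that activates Bmal1, had 1.38, 2.49, 1.79 and 1.04 CPM with DMSO and 3.87, 5.33, 3.69 and 3.65 CPM with MK-8722 (log2 fold change 1.3 ± 0.23, adjusted p = 0.000128). Per2, a repressor of the clock, had 5.56, 3.73, 3.62 and 4.03 CPM with DMSO and 3.22, 1.79, 1.73 and 1.57 CPM with MK-8722 (log2 fold change -1.03 ± 0.21, adjusted p = 0.000725). Both were low and did not overlap. Cry2, the partner of the PER proteins, fell with overlap (log2 fold change -0.42 ± 0.11, adjusted p = 0.00409). The time of day at which RNA was taken is not among the labels used here. Of 6 caveolins and cavins 2 rose and 1 fell (33.3% and 16.7%). Cav2 had 18.7, 18, 19.2 and 20.6 CPM with DMSO and 25, 28.9, 29.3 and 30.8 CPM with MK-8722 (log2 fold change 0.58 ± 0.10, adjusted p = 0.000121). Cav1, the main coat protein of caveolae, had 214, 208, 223 and 226 CPM with DMSO and 286, 291, 289 and 291 CPM with MK-8722 (log2 fold change 0.41 ± 0.10, adjusted p = 0.0026). Cavin3 had 33.6, 33.6, 34.5 and 34.7 CPM with DMSO and 26.1, 24.6, 27.5 and 30.7 CPM with MK-8722 (log2 fold change -0.33 ± 0.07, adjusted p = 0.00174), all without overlap.

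The changes were seen at each passage. The median difference in log2 CPM between MK-8722 and DMSO over the 1587 genes that rose was 0.42 at passage 12, 0.49 at 13, 0.48 at 14 and 0.49 at 15, and over the 896 that fell it was -0.35, -0.44, -0.42 and -0.41. These genes were called on the same libraries, so the sign follows from the call. The 27 list genes plotted by passage, each taken by the naming rule and changed 2-fold or more, had the called sign in 108 of 108 passage differences.

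**Figure D5:**
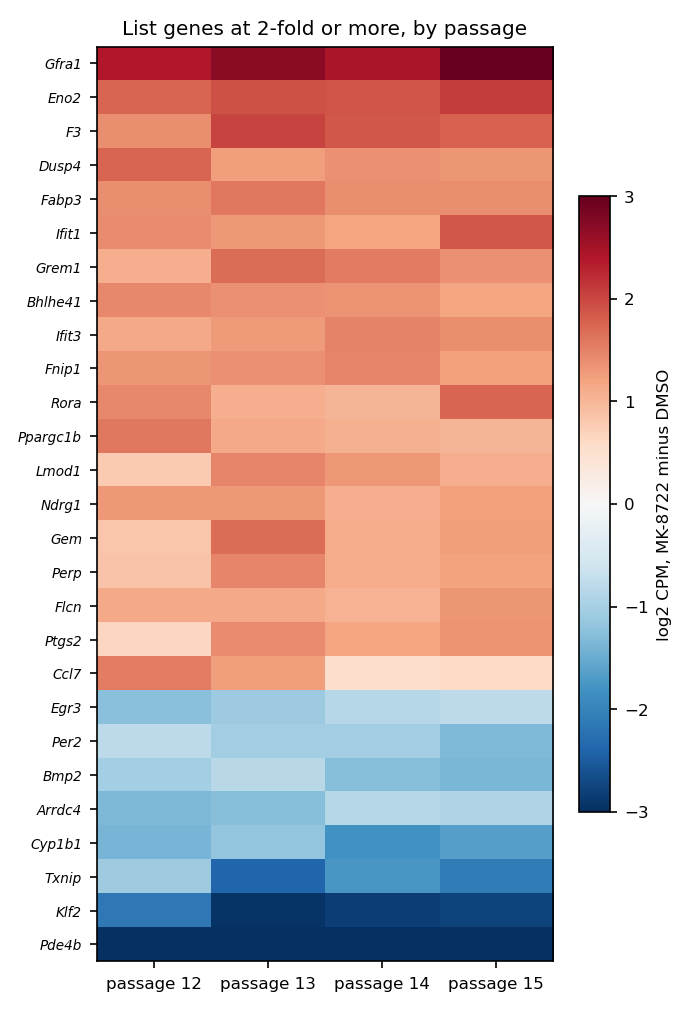
Difference in log2 CPM between the MK-8722 and the DMSO library of the same passage (color, red for higher and blue for lower with MK-8722, saturated at 3 either way) for the 27 plotted list genes, all called at 2-fold or more. The colors of a gene keep their sign in all 108 cells, and Txnip is palest at passage 12.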

How the data were processed

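RNA of MEFs was sequenced from poly(A) libraries, and groups were taken from the labels. The authors ran nf-core/rnaseq (STAR and Salmon, GRCm38, Ensembl annotation) with options for molecular identifiers, and their methods name a batch correction but no batch. All libraries here share a batch label, and no correction was made here. The deposited gene table holds estimated counts, not normalized, which were rounded to whole numbers. The deposited transcript tables hold estimated counts, effective lengths and TPM, used only for a length offset and to find the most abundant transcript of a gene. CPM were computed from the rounded gene counts with TMM factors.

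Genes with low counts were dropped with filterByExpr, leaving 15828 of 55487. Means of the 6 groups were estimated over 24 libraries by the quasi-likelihood method of edgeR 4.0.16 (R 4.3.3) with two-sided tests and Benjamini-Hochberg adjustment. Calls needed an adjusted p below 0.05 together with a change of 1.2-fold or more. Depth of 26900240 to 34192685 counts limits the precision of genes of few counts, and a floor of 3 counts covers counting error only. DESeq2 1.42.0, other scalings, filters, thresholds, a length offset, blocks and leaving out libraries were alternatives. The fit was tested on simulated data.

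The members and the gene lists were chosen with earlier results of these data known. Named were the 10 largest rises and falls with a mean of at least 5 CPM and no overlap, without gene models, chromosome 18 and the lists set aside, then up to 2 called members per direction of each list with a mean of at least 1 CPM, or the member with the highest mean where none was called, and Prkaa1 and Prkaa2. Of these, list members whose call was lost without 1 library or under another setting are given no values in the text apart from Arrdc2, and the results of 2 more members are not reported here. Interaction, KO and torin1 values were given for the 20 largest changes only. Promoter windows came from RefSeq (GRCm38.p6).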

Additional observations from a re-analysis of the deposited data

Results flagged for a closer look

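In groups of 4 libraries, the highest or lowest value was set against the rest by Dixon's criterion at its usual level. Over the 143 genes named by rule, 21 of 286 groups held a library beyond it (7.34%), and chance gives about 1 in 20 groups. All 21 were libraries of passage 12 or 13. In the MK-8722 library of passage 12 these were Bbc3 (11.7 CPM), Cad (486 CPM), Ccne1 (13.7 CPM), Gfra1 (15.8 CPM), Mef2c (7.60 CPM), Per2 (3.22 CPM), Prkab1 (49.2 CPM), Sesn2 (78.5 CPM), Tsc1 (67.9 CPM) and Txnip (14.3 CPM). In that of passage 13 they were Fzd7 (81.8 CPM), Itga7 (15.5 CPM), Plk2 (123 CPM) and Rora (5.33 CPM). In the DMSO library of passage 12 they were Atf6 (101.5 CPM) and Plat (24.5 CPM), and in that of passage 13 Etv1 (3.99 CPM), Hmox1 (45.6 CPM), Kitl (3.58 CPM), Klf2 (26.8 CPM) and Renbp (5.45 CPM).

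The response to MK-8722 differed between the genotypes in 17 of the 20 genes with the largest changes, by the interaction term in edgeR, against 12.8% of all genes tested. The 20 genes were named for a large response in WT, which also enters this difference. Passage and genotype cannot be told apart here. As log2 fold change in AMPK KO minus that in WT, the difference was -2.36 for Gfra1, -2.20 for Crebrf, -2.07 for Ccn3, -2.06 for Renbp, -2.02 for Uap1l1, -1.98 for Slc27a1, -1.78 for Gask1b, -1.77 for Eno2 and -1.59 for F3, all of which rose in WT. Among genes that fell in WT it was 3.69 for Pde4b, 2.70 for Klf2, 1.58 for Rhob, 1.54 for Tsc22d3, 1.37 for Traf1, 1.24 for Il1r1, 1.04 for Ifi204 and 0.89 for Arf2.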

How the results depend on the processing

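The 2483 genes called in WT became 4447 (2069 lower) at the adjusted p alone and 833 (564 higher, 269 lower) at a fold change of at least 1.5, and without 1 library they numbered 2260 to 2672. The 247 genes called in AMPK KO became 423 at the adjusted p alone, 64 at a fold change of at least 1.5, 137 with a transcript length offset and 121 to 271 without 1 library, the lowest numbers being 121 and 147 without MK-8722 replicates 1 and 4 and 130 without DMSO replicate 1. At a fold change of at least 1.5 the interaction gave 681 genes (2023 at 1.2, and 1728 to 2404 without 1 library) and torin1 against MK-8722 gave 3551 (7229 at 1.2, and 6913 to 7226 without 1 library). Scaling by library size alone changed the share of rises from 55.5% to 45.1% in KO, and from 53.5% to 65.3% for torin1 against MK-8722, where it moved the median of all genes from 0.02 to 0.12 on the log2 scale.

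Replicate numbers and passages were compared as pairs of DMSO and MK-8722 libraries in WT. Deviations from the group means correlated at 0.28, 0.26, -0.00094 and 0.056 for passages 12 to 15. For replicates 1 to 4 the values were 0.030, -0.18, 0.056 and 0.0032. The libraries were not treated as paired because the authors' methods name no pairing. The correlations do not settle whether passages pair the libraries. At passages 12, 13 and 15 a library correlated best with its own passage, at passage 14 it did not. With a block by passage 2907 genes were called in WT (2468 of them among the 2483), 729 in KO and 2785 in the interaction, and with a block by number 2457 in WT. Of 139 named genes in WT the passage block changed no call, and the H1f2 interaction was called with it (0.72, adjusted p = 0.036).

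Leaving out 1 library kept 1016 of 1112 named values in WT on their side of the thresholds, and 93 values of 29 genes lost their call. Differences near 0 changed sign. Prkaa1 in WT was -0.0025 by DESeq2, -0.0026 with its size factors, -0.0086 with at least 10 counts in every library, -0.0173 with no filter, and -0.0283 to 0.0175 without 1 library. Without 1 library the Txnip interaction was -0.12 to 1.08 and Gfra1 in torin1 against MK-8722 was -0.18 to 0.54. The cause was not tested. Depth limits genes of a few counts, whose folds rest on few reads.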

Other observations

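Some list members were called at under 1 CPM, and they are given as estimated counts at passages 12, 13, 14 and 15. Klf15, a Kruppel-like factor of fasting metabolism, had 6, 0, 3 and 4 counts with DMSO and 33, 20, 25 and 20 with MK-8722. Rragd, the Rag GTPase that TFEB is known to induce, had 12, 9, 14 and 8 counts with DMSO and 48, 39, 40 and 32 with MK-8722. Both were higher in every treated library. Angptl4, a secreted inhibitor of lipoprotein lipase, had 15, 13, 10 and 18 counts with DMSO and 1, 4, 1 and 2 with MK-8722, without overlap. Cyp1a1, the cytochrome P450 most closely tied to the aryl hydrocarbon receptor, had 5, 13, 9 and 10 counts with DMSO and 0 in each MK-8722 library, at least 11.6-fold lower against a floor of 3 counts over the group.

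The calls were spread over levels and kinds of gene. With the genes split by level into 4 bins of 3957, 6.7% of the lowest bin (up to 1.28 CPM) were called, against 21.8%, 19.6% and 14.6% of the bins above it. Of 13157 protein-coding genes 17.5% were called, and of 317 long intergenic RNAs 27 rose and 13 fell (12.6%), while 2.65% of 1172 processed pseudogenes were called.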
